A study of Mus musculus with 8 samples.

Results

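The 10 genes described here, Kit, Zbtb16, Gfra1, Sohlh1, Sohlh2, Dmrt1, Nanos2, Nanos3, Sall4 and Uchl1, are genes known for their expression in spermatogonia. They were chosen by name as spermatogonial genes, without a rule on measured values but with earlier results of these data known. They are 10 of the 23235 gene symbols listed. All 10 passed the filter on low values, an FPKM (fragments per length of transcript, scaled to the fragments of the library) above 1 in at least 1 library, which left 15899 genes for testing. Kit, Zbtb16, Gfra1, Sohlh2 and Sall4 passed without any WT PD library, and Nanos2 only through 2 of the Cnot4-null libraries, 1 of each stage.

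The study sequenced RNA from meiotic germ cells of C57BL/6 mice with and without Cnot4, which encodes a RING-type E3 ubiquitin ligase that associates with the CCR4-NOT deadenylase complex. Mutants were Cnot4 fl/fl;Stra8-Cre mice, in which Cre driven by Stra8 deletes exon 2 in germ cells and shifts the reading frame, and controls were labelled WT. The paper places the deletion before meiosis in its results and after entry into meiosis in its discussion. Leptotene and zygotene spermatocytes (LZ) and pachytene and diplotene spermatocytes (PD) were sorted from testes of 6-week-old males by Hoechst and propidium iodide fluorescence, with the sorted cells stained for SYCP3 and pH2AX as a check, and each of the 4 groups held 2 libraries, which the paper calls biological replicates. No library was labelled as spermatogonia, so the genes were read here in sorted spermatocytes. The labels describe Trizol extraction with TruSeq libraries from total RNA, and the methods of the paper describe Smart-Seq2 on sorted cells, and the files do not show which was used.

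Spermatogonia are the mitotic germ cells of the testis. The undifferentiated ones, which include the stem cells, depend on GDNF signalling and on factors such as ZBTB16, SALL4 and NANOS2, while the differentiating ones turn on KIT under SOHLH1 and SOHLH2 and then enter meiosis. NANOS2 binds CNOT1, the scaffold subunit of the same CCR4-NOT complex that CNOT4 associates with.

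Cnot4 itself was read in WT at 36.0 and 34.9 FPKM for LZ and 76.6 and 73.1 for PD, and in the mutant at 43.2 and 34.6 for LZ and 65.9 and 53.5 for PD. The mutant PD libraries lay below those of WT, with a log2 change of -0.33 (SE 0.20, adjusted p 0.192), and at LZ the difference was 0.12 (adjusted p 1.0). A single value per gene does not show the loss of exon 2, so these levels do not test the genotype. The files hold no read counts. Estimated from the spacing of low FPKM values, the libraries held 5.60 to 6.36 M fragments at LZ, 7.28 and 7.96 M in WT PD, and 5.97 and 4.91 M in Cnot4-null PD. This is an estimate of the fragments behind the FPKM values and not of all reads sequenced. The read totals that the study lists put the libraries in another order and were not used here.

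The Cnot4-null PD libraries stood apart from the other 6. Above 1 FPKM they held 13887 and 14249 genes, where the WT PD libraries held 10103 and 10076 and the LZ libraries 11538 to 11823, and their duplicates were the least alike, with a Spearman correlation across genes of 0.892 against 0.941 to 0.968 in the other groups. Genes that mark other testis cells were also high in them. The summed FPKM of 8 Leydig cell markers was 11296 and 24315 in Cnot4-null PD, where it was 135 and 9.76 for WT and 14.2 to 25.4 at LZ, with Insl3 the most abundant at 9669 and 21608 in the mutant, while Cyp17a1, Cyp11a1, Hsd3b6 and Lhcgr were listed at 0 in WT PD replicate 2. The sum of 9 spermatid markers was 17584 and 8099 in Cnot4-null PD against 497 and 319.9 in WT PD and 752 to 4162 at LZ, led by Prm1 at 7592 and 2949. The sum of 9 peritubular and endothelial markers was 385 and 958 against 22.7 and 6.33 in WT PD, led by Dcn at 210.4 and 455. The sum of 8 macrophage markers was 379 and 244 against 25.2 and 16.1 in WT PD, led by Aif1 at 352 and 128. Without Aif1, the other 7 summed to 27.2 and 116.0 in Cnot4-null PD, each higher in replicate 2 where Aif1 was lower, and to 3.25 and 2.96 in WT PD, and C1qa had a value of 0 in each WT PD library. The sum of 11 Sertoli cell markers was 164 and 300.1 in Cnot4-null PD, 18.8 and 38.6 in WT PD, 205 and 174 in WT LZ, and 139.9 and 104 in Cnot4-null LZ, where Ctsl made up 123 and 85.5. Clu led it in Cnot4-null PD at 94.6 and 196, while Fshr was listed at 0 in both of these libraries and Amh in replicate 1. Of 6 blood and mast cell markers, Hbb-b1, Hba-a1, Cma1, Fcer1a and Cpa3 had a value of 0 in this pair of libraries, and Ptprc stood at 1.23 and 4.80. Those at 0 were also at 0 in every other library, apart from Cpa3 in WT PD (0.205 and 0.282). Markers of the labelled stage moved the other way, since 10 PD spermatocyte markers summed to 6011 and 2174 in Cnot4-null PD against 13003 and 12139 in WT PD. Ldhc made up most of these sums, at 4585 and 1474 in Cnot4-null PD and 10594 and 9725 in WT PD. Without Ldhc the sums were 1426 and 700.2 against 2409 and 2413. Every comparison that includes Cnot4-null PD rests on this pair of libraries, and the genotype effects at PD of the 9 genes called there are also given without each of them. A group left with 1 library adds nothing to the estimated spread. A call kept in such a fit is therefore not a check on the pair. The part of these other cell types in the results was not tested.

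**Figure D1:**
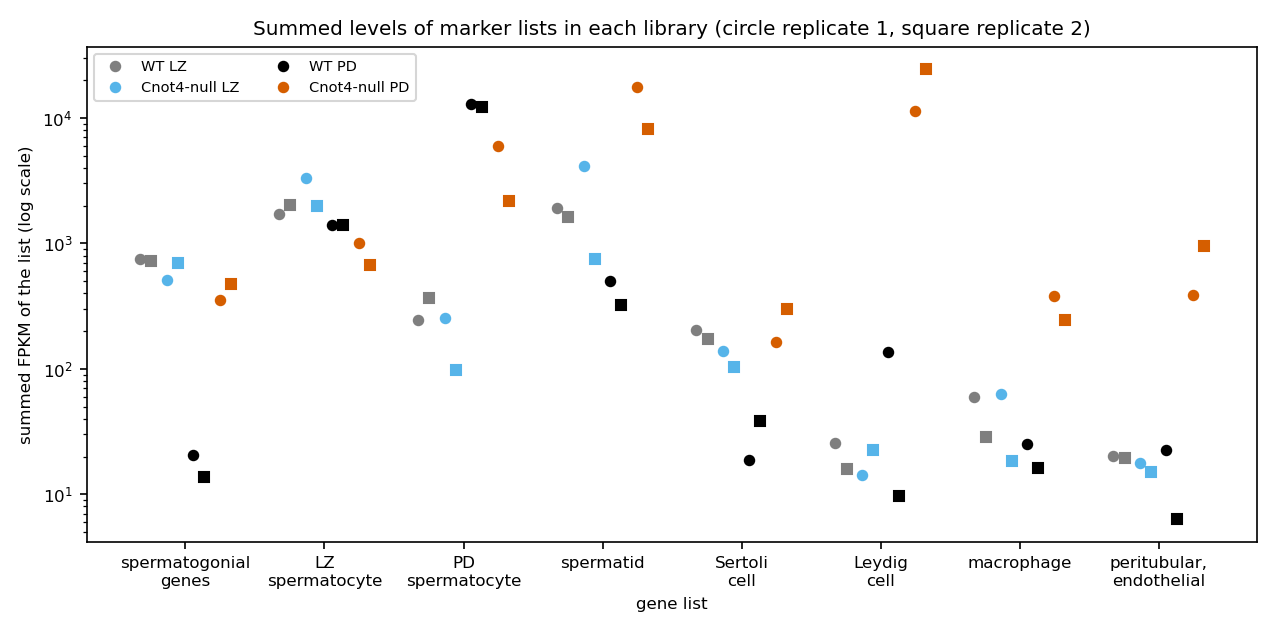
Summed FPKM of each marker list (log axis) in the 8 libraries, 1 point per library, with the sum of the 10 spermatogonial genes beside them. The 10 genes sum to 20.6 and 13.7 in WT PD and to 353 and 473 in Cnot4-null PD, and the Leydig cell list reaches 24315 in Cnot4-null PD.

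Together the 10 genes summed to 757 and 725 FPKM at LZ and 20.6 and 13.7 at PD in WT, and to 515 and 693 at LZ and 353 and 473 at PD in the mutant. WT PD was the low group by a wide margin, and both Cnot4-null PD libraries lay below all 4 LZ libraries. In bulk RNA, fewer cells of a type and less RNA per cell cannot be told apart, here and in every value that follows.

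The first question was how the genes change from LZ to PD in control cells. In WT, 8 of the 10 genes were called lower at PD than at LZ (limma, Benjamini-Hochberg adjusted p under 0.05), where 36.2% of all genes tested were called lower, and none of the 10 was called higher, where 21.6% of all genes were. In Cnot4-null cells, 2 of the 10 genes were called lower at PD than at LZ, against 18.2% of all genes, and 0 were called higher, against 27.8% of all genes. The second question was what loss of CNOT4 does at each stage. At LZ, limma called 0 of the 10 genes in either direction, where it called 0.0692% of all genes higher and 0.0252% lower. At an unadjusted p under 0.05 it passed 1 of the 10 genes and 1013 of all genes (6.37%). That gene, Nanos2, passed the filter only through Cnot4-null libraries. At PD, 9 of the 10 genes were called higher in Cnot4-null than in WT libraries, against 41.6% of all genes, and 0 were called lower, against 11.5%. Of all genes tested, 1719 passed the filter only through Cnot4-null PD libraries, which favours a higher call there, and of the other 14180 genes 5671 were called higher and 1830 lower. None of the 10 genes is among the 1719. With no filter, 8 of the 10 were called higher at PD, Nanos3 no longer, and 5485 of the 15899. The difference of the genotype effect between the stages was called positive for 8 of the 10 genes, against 26.0% of all genes, and negative for 0, against 3.97%. The 5 comparisons share libraries, and each is given on its own. With 2 libraries a group, an exact permutation test of a single comparison could not fall below a p of 0.333, so the calls rest on the spread that limma pools over genes and groups.

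The scale between libraries bears on these counts. The median log2 change of all genes between Cnot4-null and WT at PD was 0.66. Quantile normalization gave -0.10 instead, and the median was 0.42 once all libraries were brought to 1 median over the genes they all express. Of all genes called at PD, 78.3% were higher in the mutant, where the shares after those 2 scalings were 41.0% and 60.3%. The corresponding share for the difference between stages was 86.8%, 44.1% and 63.3%, and for PD versus LZ in Cnot4-null it was 60.5%, 37.4% and 57.5%. Relative to the median gene of 0.66, the genotype effects of the 9 called genes at PD ran from 0.52 log2 for Nanos3 and 0.94 for Gfra1 up to 4.17 for Dmrt1 with a pseudocount of 1. The medians of the 10 fitted log2 changes were -3.87 for PD versus LZ in WT, -0.39 for the same step in Cnot4-null, -0.03 for genotype at LZ and 3.37 for genotype at PD, against -0.32, 0.19, 0.00 and 0.66 over all genes. Nanos2, listed at 0 in all WT libraries, enters these medians at a value that depends on the pseudocount. So does the size of every effect of a gene that is low in WT PD. With a pseudocount of 0.1 in place of 1, the genotype effect at PD was 5.55 for Sohlh1, 5.51 for Dmrt1, 5.41 for Sall4, 4.98 for Kit, 4.86 for Zbtb16, 4.70 for Uchl1, 4.15 for Sohlh2, 3.16 for Gfra1 and 1.34 for Nanos3, another order than with 1.

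**Figure D2:**
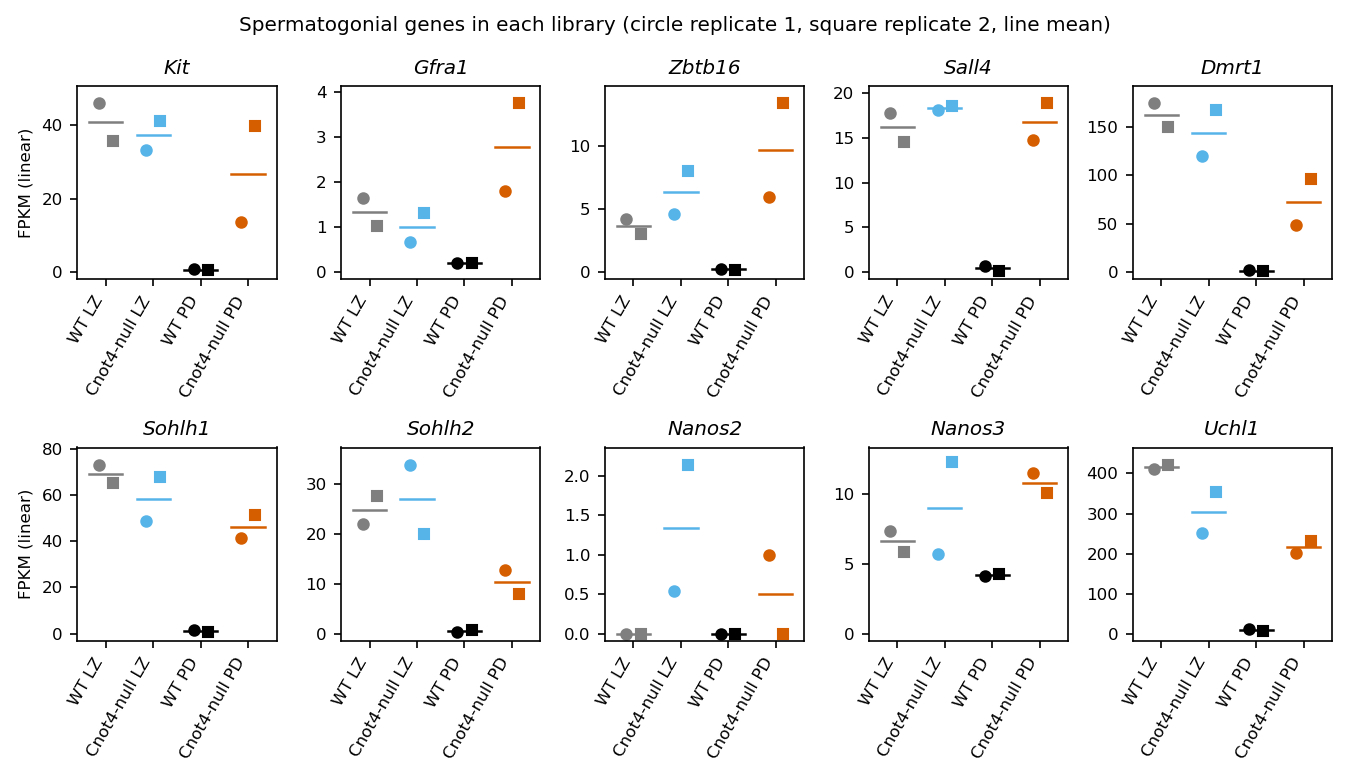
FPKM of each of the 10 genes (linear axis, 1 panel per gene) in the 8 libraries, with circles for replicate 1, squares for replicate 2 and a line at each group mean. Kit, Sohlh1, Dmrt1, Sall4 and Uchl1 show WT PD points near 0, while the Cnot4-null PD points reach 39.7 FPKM for Kit and 232 for Uchl1.

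Kit encodes the receptor tyrosine kinase for KIT ligand and is a mark of differentiating spermatogonia (mm9, chr5:75970941-76052747, plus strand). WT libraries had 45.9 and 35.7 FPKM at LZ and 0.826 and 0.497 at PD, and Cnot4-null libraries had 33.1 and 41.2 at LZ and 13.7 and 39.7 at PD. WT PD lay far below the other 3 groups, the LZ groups overlapped, and the Cnot4-null PD libraries were 2.89 times apart, with the higher one inside the LZ range. In WT, the PD mean was 1.62% of the LZ mean, a log2 change of -4.65 (SE 0.45, adjusted p 0.000126). In Cnot4-null cells the change of -0.63 was not called (adjusted p 0.281). That value moved with the library left out. It was 0.10 without Cnot4-null PD replicate 1 and -1.36 without replicate 2, which were also its extremes over all alternatives. The genotype effect at PD was 3.89 log2 (SE 0.45, adjusted p 0.000663), 14.8-fold on the scale of FPKM + 1. It was 4.62 without Cnot4-null PD replicate 1 and 3.16 without replicate 2, with a range of 3.07 to 4.98 over all alternatives. At LZ the genotype effect was -0.13 (adjusted p 1.0) and turned positive without WT LZ replicate 1 (0.05) or Cnot4-null LZ replicate 1 (0.02), and the difference between the stages was 4.02 (adjusted p 0.00522), or 4.75 and 3.29 without Cnot4-null PD replicate 1 and replicate 2. Kit is also expressed in Leydig and mast cells, and spermatids make a truncated Kit transcript, which a single value per symbol cannot separate. In Cnot4-null PD, the summed Leydig markers were 2.15 times as high in replicate 2 as in replicate 1, the spermatid sum was 0.461 times as high, and the mast cell genes Cpa3, Cma1 and Fcer1a were listed at 0 in both libraries. Cma1 and Fcer1a were at 0 in all 8 libraries, and Cpa3 was above 0 in WT PD alone. The sort by Hoechst and propidium iodide fluorescence is meant to leave out Leydig cells and spermatids, and their part in the Kit level was not tested.

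Gfra1 encodes the GPI-anchored co-receptor that binds GDNF and signals through RET, a mark of undifferentiated spermatogonia (chr19:58310094-58530399, minus strand). Its levels were low, with 1.65 and 1.02 FPKM at LZ and 0.212 and 0.194 at PD in WT, and 0.661 and 1.32 at LZ and 1.80 and 3.75 at PD in Cnot4-null cells. Both Cnot4-null PD values exceeded all other 6, and both WT PD values lay under all others. The WT change from LZ to PD was -0.94 log2 and passed narrowly (adjusted p 0.0499). Its call was lost without either WT LZ library (-0.75 and -1.14), without either WT PD library (-0.95 and -0.93), and without either Cnot4-null LZ library, with the value at -0.94. Quantile normalization (-0.48), rescaling (-0.84), the absence of a filter and a replicate block also ended it. In Cnot4-null cells PD lay above LZ by 0.90 (adjusted p 0.0705), a change that was called without Cnot4-null PD replicate 1 (1.28) and not without replicate 2 (0.51). Over all alternatives that change ran from 0.01 to 1.38. The genotype effect at PD was 1.60 log2 (adjusted p 0.00813), or 1.98 and 1.22 without Cnot4-null PD replicate 1 and replicate 2, and its call was lost without WT PD replicate 1 (1.61) or replicate 2 (1.59) and after quantile normalization (0.32). At LZ the effect was -0.24, or 0.00 without Cnot4-null LZ replicate 1. Over all alternatives the PD effect ran from 0.32 to 3.16, the latter with a pseudocount of 0.1, and its adjusted p from 0.00446 to 0.432. The genotype effects at PD and LZ differed by 1.84 (adjusted p 0.0304), or 2.22 and 1.46 without each of the Cnot4-null PD libraries. The call was lost without any single WT library (1.65 and 2.03 for LZ, 1.85 and 1.83 for PD). It was also lost without any single Cnot4-null LZ library (1.60 and 2.08), with no filter, and after quantile normalization (0.49). Leaving out a Cnot4-null PD library takes that pair's spread out of the fit, so a call kept there is not a check on the pair.

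**Figure D3:**
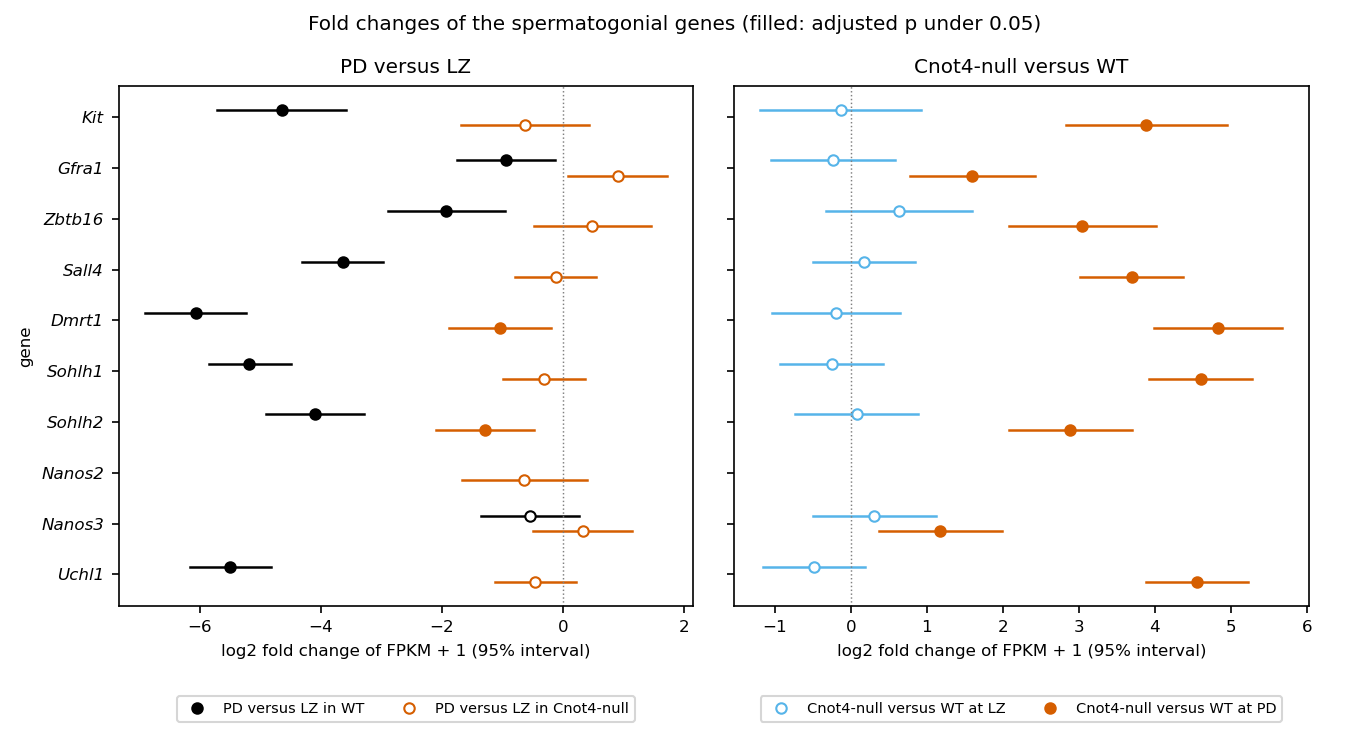
Log2 fold changes of FPKM + 1 with confidence intervals for the 10 genes in the 4 comparisons of groups, with filled points for adjusted p under 0.05 and no value for Nanos2 against WT groups at 0. At PD the genotype effect is 4.83 for Dmrt1 and 1.18 for Nanos3. For PD versus LZ, Nanos3 stands at -0.55 in WT and 0.32 in Cnot4-null, neither of them called. The values after quantile normalization (0.10 in WT and -0.12 in Cnot4-null), which reverse both directions, are not drawn.

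Zbtb16, also called PLZF, encodes a zinc finger repressor of undifferentiated spermatogonia (chr9:48462416-48644050, minus strand). At LZ it had 4.25 and 3.06 FPKM in WT and 4.64 and 8.06 in the mutant, and at PD 0.235 and 0.191 in WT and 5.97 and 13.4 in the mutant. The WT PD values, an estimated 8.7 and 7.8 fragments, lay under all others, and both mutant groups exceeded both WT groups while overlapping each other. The WT change from LZ to PD was -1.93 log2 (SE 0.41, adjusted p 0.00514). In Cnot4-null cells the PD mean was 152% of the LZ mean and the change of 0.48 was not called (adjusted p 0.359), with 1.01 without Cnot4-null PD replicate 1 and -0.04 without replicate 2. At LZ the mutant lay 0.63 above WT without a call (adjusted p 0.915). At PD it lay 3.04 above WT (SE 0.41, adjusted p 0.00121), with 3.57 and 2.52 without replicate 1 and replicate 2, and the value ran from 2.07 to 4.86 over all alternatives. The effects at the stages differed by 2.41 (adjusted p 0.0218), or 2.93 and 1.89 without Cnot4-null PD replicate 1 and replicate 2, and that call was lost without Cnot4-null LZ replicate 1 (2.07), either WT LZ library (2.23 and 2.60) or either WT PD library (2.44 and 2.39), with no filter, and after quantile normalization (1.43).

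Sall4 encodes a zinc finger transcription factor of undifferentiated spermatogonia that works with ZBTB16 (chr2:168573832-168593443, minus strand). The WT levels were 17.8 and 14.6 FPKM at LZ and 0.717 and 0.0938 at PD, and the mutant levels 18.2 and 18.6 at LZ and 14.8 and 18.9 at PD. WT LZ and both mutant groups lay between 14.6 and 18.9, and WT PD alone was low, at levels that rest on few fragments. The WT change from LZ to PD was -3.64 log2 (adjusted p 5.68e-05), where the Cnot4-null PD mean was 91.9% of its LZ mean, a change of -0.12 (adjusted p 0.742) that was 0.04 without Cnot4-null PD replicate 1. The genotype effect was 0.18 at LZ and 3.70 at PD (SE 0.29, adjusted p 0.000198), with 3.86 and 3.53 at PD without each of the Cnot4-null PD libraries and a range of 2.89 to 5.41 over all alternatives. The difference between the stages was 3.52 (adjusted p 0.00206), or 3.69 and 3.35 without the same libraries.

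Dmrt1 encodes a DM-domain transcription factor that keeps spermatogonia out of meiosis and is also made by Sertoli cells (chr19:25580108-25678819, plus strand). In WT it fell from 174 and 149.6 FPKM at LZ to 1.88 and 1.03 at PD, and in the mutant from 119.6 and 167 to 48.1 and 95.7. WT PD was lowest, Cnot4-null PD lay between WT PD and every LZ library with no overlap, and the LZ groups overlapped. In WT the PD mean was 0.898% of the LZ mean, a log2 change of -6.07 (SE 0.36, adjusted p 2.48e-05), the most negative change of the 10 genes. In Cnot4-null cells the PD mean was 50.2% of the LZ mean, a change of -1.05 called at an adjusted p of 0.0481. Without Cnot4-null PD replicate 2 that change was -1.53 and still called, and without any other single library the call was lost, with -0.56 without Cnot4-null PD replicate 1, -1.28 and -0.81 without Cnot4-null LZ replicate 1 and replicate 2, and -1.05 without each WT library. It was also lost with no filter, with a pseudocount of 0.1 (-1.06), after quantile normalization (-1.20) or rescaling, without a trend, with the compared libraries alone and with a replicate block. The genotype effect at PD was 4.83 (SE 0.36, adjusted p 0.000182), or 28.5-fold on the scale of FPKM + 1, with 5.32 and 4.34 without replicate 1 and replicate 2. At LZ it was -0.19 (adjusted p 1.0), or 0.05 without Cnot4-null LZ replicate 1, and the stages differed by 5.03 (adjusted p 0.0016), or by 5.51 and 4.54 without each of the Cnot4-null PD libraries. Beside it, the Sertoli list summed to 164 and 300.1 in Cnot4-null PD and to 205 and 174 in WT LZ against 139.9 and 104 in Cnot4-null LZ. Without Ctsl, its most abundant gene at LZ, the sums were 124 and 244, 104 and 98.5, and 16.9 and 18.3 in the same order. The Cnot4-null PD sums still hold Clu, the most abundant gene there, at 94.6 and 196. Dmrt1 was 1.99 times as high in Cnot4-null PD replicate 2 as in replicate 1 where the Sertoli sum was 1.83 times as high. The sort by Hoechst and propidium iodide fluorescence is meant to leave out Sertoli cells too, and their part in its level was not tested.

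Sohlh1 encodes a basic helix-loop-helix factor of spermatogonia that acts on Kit and pairs with SOHLH2 (chr2:25698515-25702768, minus strand). At LZ its level was 73.0 and 64.9 FPKM in WT and 48.8 and 67.8 in the mutant, and at PD it was 1.42 and 0.542 in WT and 41.3 and 51.3 in the mutant. WT PD was far below the others, an estimated 13 and 5.6 fragments, and Cnot4-null PD overlapped Cnot4-null LZ but not WT LZ. The change from LZ to PD was -5.18 log2 in WT (SE 0.29, adjusted p 2.08e-05) and -0.32 in Cnot4-null (adjusted p 0.39). At PD the genotype effect was 4.61 (SE 0.29, adjusted p 0.000121), with 4.76 and 4.45 without each of the Cnot4-null PD libraries, and at LZ it was -0.25 (adjusted p 1.0). The effects differed by 4.86 (adjusted p 0.00103), with 5.01 and 4.71 without the same libraries.

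Sohlh1 and Uchl1 moved together across the 8 libraries, with a Pearson r of 0.998, and their promoters are shown to set the sequences before this pair side by side. SOHLH1 and SOHLH2 bind E-boxes, the letters CANNTG, a palindromic pattern that reads the same on both strands. The 250 bases before each RefSeq start site come from the RefSeq promoter table of GRCm38.p6, matched by sequence to 1 place in NCBIM37 (mm9), for 7 of the 10 genes. Both are written 5′ to 3′ on the gene's strand, with E-boxes in capitals, for Sohlh1 at chr2:25702769-25703018 (minus strand) and for Uchl1 at chr5:67067110-67067359 (plus strand).

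Sohlh1: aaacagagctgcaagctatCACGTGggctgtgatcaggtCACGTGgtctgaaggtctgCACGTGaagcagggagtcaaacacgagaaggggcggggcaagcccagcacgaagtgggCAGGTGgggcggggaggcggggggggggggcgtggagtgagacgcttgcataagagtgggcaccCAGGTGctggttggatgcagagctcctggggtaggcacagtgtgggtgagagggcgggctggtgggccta

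Uchl1: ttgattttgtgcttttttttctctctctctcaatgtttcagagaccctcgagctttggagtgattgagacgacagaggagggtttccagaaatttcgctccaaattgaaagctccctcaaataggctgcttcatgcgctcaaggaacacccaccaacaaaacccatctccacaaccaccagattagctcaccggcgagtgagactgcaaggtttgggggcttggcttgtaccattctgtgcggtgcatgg

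The Sohlh1 window held 5 matches to CANNTG, 3 of them CACGTG and 2 CAGGTG, and the Uchl1 window held 0. Of 27025 promoters in the table, 66.0% held at least 1 CANNTG in the same window and 1.18% held at least 5, while 6.05% held CACGTG and 0.0666% held it at least 3 times. The cut-offs of 5 and 3 were set at the counts of the Sohlh1 window itself, so these shares describe that window and test nothing. The windows of Gfra1, Nanos3 and Sohlh2 held 3, 2 and 1 matches, and those of Kit and Nanos2 held 0. Zbtb16, Dmrt1 and Sall4 were the 3 others. A match describes letters in the window only, and binding was not measured.

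Sohlh2, the partner of SOHLH1 and likewise a basic helix-loop-helix factor (chr3:54985950-55013879, plus strand), had 22.0 and 27.5 FPKM at LZ and 0.299 and 0.711 at PD in WT, and 33.8 and 20.0 at LZ and 12.7 and 7.93 at PD in the mutant. The 4 LZ values overlapped between genotypes, Cnot4-null PD lay below all of them, and WT PD, an estimated 5.1 and 13 fragments, lay lowest. Unlike the other transcription factors, Sohlh2 was lower in Cnot4-null PD replicate 2 than in replicate 1, at 0.627 times. The change from LZ to PD was -4.10 log2 in WT (adjusted p 7.33e-05). In Cnot4-null it was -1.29, to 38.3% of the LZ mean (SE 0.35, adjusted p 0.0197), and that call was lost without Cnot4-null LZ replicate 1 (-0.92) and without Cnot4-null PD replicate 2 (-0.98), with no filter and with the compared libraries alone. The genotype effect at PD was 2.89 (SE 0.35, adjusted p 0.000733), with 2.58 and 3.20 without replicate 1 and replicate 2 and a range of 1.75 to 4.15 over all alternatives. At LZ it was 0.08, negative without WT LZ replicate 1 (-0.08) or Cnot4-null LZ replicate 1 (-0.29), and the stages differed by 2.81 (adjusted p 0.00718), with 2.51 and 3.12 without each of the Cnot4-null PD libraries, a difference which quantile normalization brought to 1.67 and out of the called range.

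Nanos2 encodes an RNA-binding protein that recruits CCR4-NOT to its targets in undifferentiated spermatogonia (chr7:19572873-19574311, plus strand). It was listed at 0 in all 4 WT libraries, and mutant libraries had 0.539 and 2.14 FPKM at LZ and 1.00 and 0 at PD. The nonzero values correspond to an estimated 4.3, 20 and 8.6 fragments, so the gene was seen in 3 of 4 mutant libraries and 0 of 4 WT libraries at a low level. It was called in none of the 5 comparisons, with an adjusted p of 0.264 for PD versus LZ in Cnot4-null (log2 change -0.64) and 0.351 for genotype at PD. After quantile normalization the former was called lower, at -1.05. It is the 1 gene of the 10 that passed an unadjusted p under 0.05 at LZ by limma (adjusted p 0.745). It passed the filter only through Cnot4-null libraries, at LZ through replicate 2 alone, which favours a higher value in Cnot4-null LZ. No fold is given against groups at 0.

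Nanos3 encodes a related RNA-binding protein needed in primordial germ cells and found in spermatogonia (chr8:86697632-86700451, minus strand). WT libraries read 7.39 and 5.87 FPKM at LZ and 4.14 and 4.24 at PD, and mutant libraries 5.69 and 12.3 at LZ and 11.5 and 10.1 at PD. Besides Uchl1 it was the 1 gene of the 10 above 2 FPKM in both WT PD libraries, and its WT PD mean was 63.1% of its WT LZ mean. From LZ to PD it changed by -0.55 log2 in WT (adjusted p 0.216) and 0.32 in Cnot4-null (adjusted p 0.474), and after quantile normalization both directions reversed, to 0.10 and -0.12. The Cnot4-null change was also negative without Cnot4-null LZ replicate 1 (-0.18). The WT difference was not called under any alternative, and the spread within Cnot4-null LZ covered both Cnot4-null PD values. At PD the mutant lay 1.18 above WT (SE 0.34, adjusted p 0.0244), and the call was lost without WT PD replicate 1 (1.17) or replicate 2 (1.19), without Cnot4-null PD replicate 1 (1.09) or replicate 2 (1.27), after quantile normalization (0.14), after rescaling (0.81) and with no filter. The genotype effect was 0.31 at LZ (adjusted p 1.0), or -0.18 without Cnot4-null LZ replicate 2, and its difference between stages was 0.87 and not called (adjusted p 0.207), with a reversed sign after quantile normalization (-0.22).

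Uchl1 encodes a deubiquitinase abundant in spermatogonia (chr5:67067360-67078472, plus strand) and had the highest level of the 10 genes in every library. It stood at 411 and 422 FPKM at LZ and 10.9 and 6.22 at PD in WT, and at 250.2 and 355 at LZ and 202 and 232 at PD in the mutant. The 4 groups did not overlap, in the order WT LZ, Cnot4-null LZ, Cnot4-null PD and WT PD. At LZ the log2 genotype effect was -0.48 and not called (adjusted p 0.895). The change from LZ to PD was -5.50 in WT (SE 0.28, adjusted p 1.93e-05) and -0.46 in Cnot4-null (adjusted p 0.217). The genotype effect at PD was 4.55 (SE 0.28, adjusted p 0.000123), or 23.5-fold on the scale of FPKM + 1, with 4.65 and 4.46 without each of the Cnot4-null PD libraries. Its difference between the stages, 5.04 (adjusted p 0.000993 with an SE of 0.40), was 5.13 and 4.94 without Cnot4-null PD replicate 1 and replicate 2, and 5.18 with a pseudocount of 0.1, where it was 5.80 for Sohlh1 and 5.70 for Dmrt1.

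FPKM is per length of transcript, so levels can be ordered between genes. In WT LZ the order by mean FPKM was Uchl1, Dmrt1, Sohlh1, Kit, Sohlh2, Sall4, Nanos3, Zbtb16, Gfra1 and Nanos2, and no neighbours overlapped. In Cnot4-null PD it began with Uchl1, Dmrt1 and Sohlh1, of which Dmrt1 and Sohlh1 overlapped. Kit spanned Sall4, the values of Nanos3, Sohlh2 and Zbtb16 overlapped, and Gfra1 and Nanos2 were last. In WT PD the order was Uchl1 and then Nanos3, with Dmrt1, Sohlh1, Kit, Sohlh2 and Sall4 below them. Of these, Dmrt1 overlapped Sohlh1 alone, while Sohlh1, Kit, Sohlh2 and Sall4 overlapped one another. Set against WT LZ, the Cnot4-null PD mean was 265% for Zbtb16, 208% for Gfra1 and 163% for Nanos3, while it was 104% for Sall4, 67.1% for Sohlh1, 65.5% for Kit, 52.1% for Uchl1, 44.4% for Dmrt1 and 41.6% for Sohlh2. These percentages describe group means, and differences between genes were not tested.

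Within Cnot4-null PD, the genes also parted by library. Replicate 2 exceeded replicate 1 by a ratio of 2.89 for Kit, 2.24 for Zbtb16, 2.09 for Gfra1 and 1.99 for Dmrt1. The ratio was 1.28 for Sall4, 1.24 for Sohlh1 and 1.15 for Uchl1, and under 1 for Nanos3 (0.875) and Sohlh2 (0.627). The same ratio was 1.37 for the summed other genes of undifferentiated spermatogonia and 0.678 for those of differentiating spermatogonia, a sum in which Stra8 and Dmrtb1 weigh most, with 5 of its 9 genes higher in replicate 2. It was 2.15 for the summed Leydig markers, 2.49 for peritubular and endothelial markers, 1.83 for Sertoli markers, 0.644 for macrophage markers (a sum led by Aif1, with the other 7 genes each higher in replicate 2), 0.657 for germ cell markers, 0.668 for LZ spermatocyte markers, 0.461 for spermatid markers and 0.362 for PD spermatocyte markers.

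Lists of related genes give a frame for the 10. Of 20 tested other genes of undifferentiated spermatogonia (22 listed), 16 were called higher in Cnot4-null PD than in WT PD and 0 lower, where all genes had 41.6% higher and 11.5% lower, with a median effect of 1.83 log2. Of the 20, Thy1, Neurog3 and Eomes passed the filter only through Cnot4-null PD, and 14 of the other 17 were called higher. With no filter 13 of the 20 were called higher, and Thy1 and Neurog3 were not called (adjusted p 0.0575 and 0.103). Pou5f1, Cdh1 and Foxc2, among the 14, passed only through Cnot4-null libraries. In this and later medians, genes at 0 in each WT PD library enter at values that depend on the pseudocount. The largest effects in that list were 3.96 for the surface protein Cd9, 3.59 for the transcription factor Sox3 and 3.13 for Foxo1. At PD, Cd9 had 2.72 and 1.78 FPKM in WT and 35.2 and 68.7 in the mutant, without overlap. Of 9 other genes of differentiating spermatogonia, 8 were called higher and 1 lower, Dmrtb1 (-0.97), with a median of 3.26, and with no filter 6 were called higher and 0 lower. Sox3, Rarg and Neurog3 are in both lists and were called higher, so the 16 and the 8 share 3 genes. The list of differentiating genes was led by the retinoic acid-binding protein Crabp1 (4.86, adjusted p 4.44e-05) and by Stra8 (4.44, adjusted p 0.000175). At LZ limma called 0 genes of either list, and an unadjusted p under 0.05 passed 4 of the 20, all higher in the mutant, and 0 of the 9, where 2.74% of all genes passed as higher and 3.63% as lower. For PD versus LZ in WT, 2 of the 20 undifferentiated genes were called higher, Id4 and Bcl6b, and 9 lower (21.6% and 36.2% for all genes), and of the 9 differentiating genes Dmrtb1 was called higher and 7 were called lower. In Cnot4-null cells Id4, Thy1 and Pou5f1 of the undifferentiated list were called higher at PD and Taf4b, Epcam and Cd9 lower (27.8% and 18.2% for all genes), and of the differentiating list Dmrtb1 higher and Rhox13, Stra8 and Crabp1 lower. Dmrtb1, Id4, Bcl6b, Thy1, Pou5f1, Taf4b, Epcam and Rhox13 were named after their values were seen.

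Of 11 tested ligands and partners of the 10 genes (13 listed), 8 were called higher in Cnot4-null PD than in WT PD and 1 lower, with a median of 1.55 log2, where all genes had 41.6% higher and 11.5% lower. Kitl, Cxcl12 and Csf1 passed the filter only through Cnot4-null PD, the group in which they were then called higher, and of the other 8 genes 5 were called higher. With no filter the 3 had adjusted p of 0.0134, 0.0339 and 0.0102. Ret is also in the undifferentiated list and Dazl in the germ cell list. Kitl, the ligand of KIT, which Sertoli cells make, had 0.122 and 0.0447 FPKM at PD in WT and 2.66 and 7.21 in the mutant. Both mutant libraries were higher, by 2.34 log2 (adjusted p 0.00264). Cxcl12 rose from 0.612 and 0.0701 to 6.47 and 37.7 FPKM, an effect of 3.69 log2 (adjusted p 0.00558), and Csf1 from 0.0415 and 0.0553 to 4.03 and 9.28, an effect of 2.78 log2 (adjusted p 0.00156). Cnot1, the subunit that NANOS2 binds, was the 1 gene called lower, from 75.0 and 69.4 FPKM in WT to 35.6 and 26.7 in the mutant, and Dazl had the third largest effect of the list (2.60). Kitl and Cnot1 were chosen after their values were seen.

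**Figure D4:**
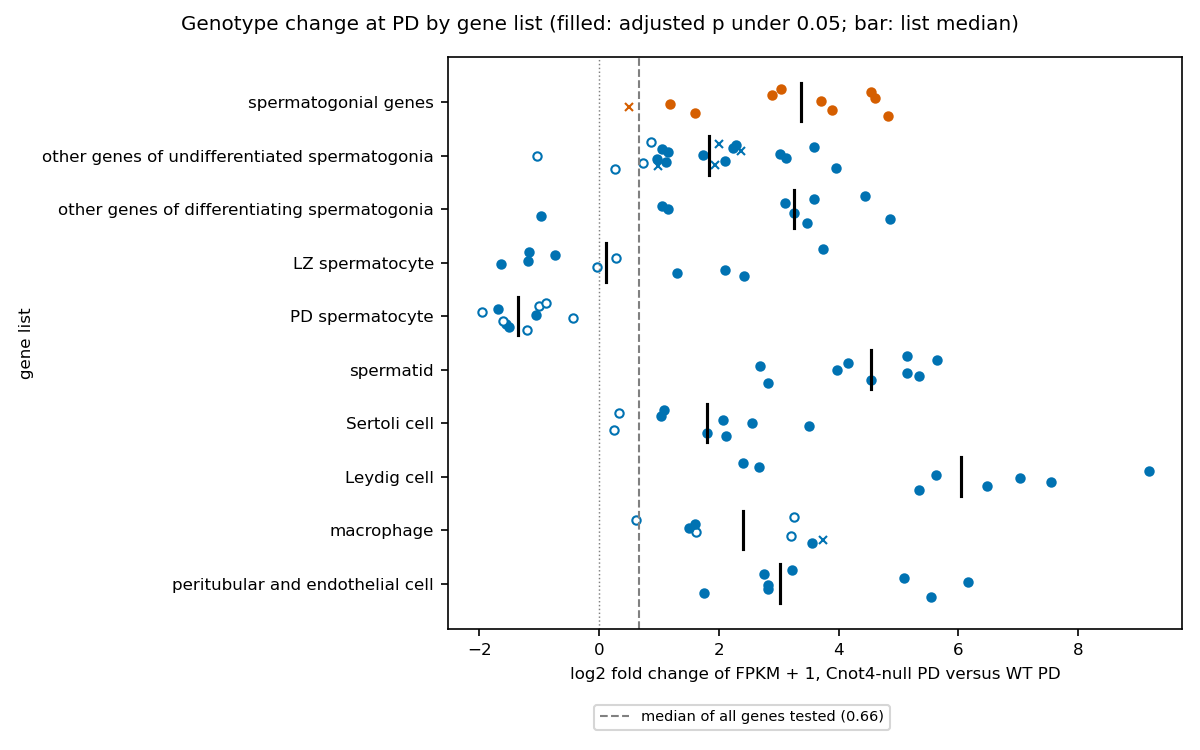
Log2 genotype effect at PD by gene list, 1 point per gene, filled where the adjusted p is under 0.05, with crosses for genes at 0 in each WT PD library, a bar at the list median and a dashed line at 0.66, the median of all genes. The spermatogonial lists have medians of 3.37, 1.83 and 3.26, beside 6.05 for the Leydig cell list and -1.35 for the PD spermatocyte list.

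Stage and cell type markers were read the same way at PD, against the 41.6% of all genes called higher and 11.5% called lower. All 8 Leydig cell genes were called higher in the mutant (median 6.05, Insl3 at 9.18), as were 9 of 9 spermatid genes (median 4.55, Tnp2 at 5.65), 8 of 8 tested peritubular and endothelial genes (median 3.03, Dcn at 6.16), 7 of 9 tested Sertoli cell genes (median 1.81) and 4 of 8 macrophage genes (median 2.41), with 0 lower in each. Those 4 macrophage genes were C1qa, Aif1, Csf1r and Cd68, and their share lies near that of all genes. Of 10 LZ spermatocyte genes (median 0.12), Tex15 (3.74), Dmc1 (2.42), Rec8 and Prdm9 (1.31) were called higher, a share near that of all genes. Spo11, Stag3, Sycp3 and Sycp2 were called lower, but these did not fall from LZ to PD in WT. Their WT PD means were 629%, 116%, 102% and 143% of their LZ means, in that order. The same percentage was 8.46% for Rec8, 1.95% for Prdm9, 1.74% for Tex15 and less for Dmc1. It was 24.7% for Sycp1 and 44.3% for Smc1b, neither of them called between genotypes at PD. The median and share of this list thus join genes that fall in WT with genes that do not. Of 10 PD spermatocyte genes (median -1.35), 0 were called higher and Nme5 (-1.69), Adam3 (-1.55), Adam2 (-1.50) and Hspa2 (-1.06) lower. Ldhc, the most abundant of them, was not called (limma adjusted p 0.0568). Of 4 germ cell genes Dazl was called higher and Mael and Ddx4 lower, and Ptprc, the 1 blood and mast cell gene tested, was called higher. Some of these genes passed the filter only through Cnot4-null PD, namely Hsd3b1, Hsd3b6 and Lhcgr of the Leydig list, Myh11, Col3a1 and Cdh5 of the peritubular and endothelial list, Gata4 of the Sertoli list, Csf1r and Emr1 of the macrophage list, and Ptprc. Without them, 5 of 5 Leydig genes, 5 of 5 peritubular and endothelial genes, 6 of 8 Sertoli genes and 3 of 6 macrophage genes were called higher. With no filter the genes called higher were 8 of 8 for Leydig, 7 of 8 for peritubular and endothelial, 6 of 9 for Sertoli, 9 of 9 for spermatid, 1 of 8 for macrophage, 3 of 10 for LZ spermatocyte and 0 of 10 for PD spermatocyte, the last 2 with 1 lower in each, and Ptprc was not called. In these short lists, genes past the 3 with the largest effects were named after their values were seen. In Cnot4-null PD, Dmc1 stood at 10.6% of its WT LZ mean, Prdm9 at 12.0%, Tex15 at 38.5% and Rec8 at 70.1%. The LZ spermatocyte genes not called higher ran from 30.4% for Sycp1 to 205% for Spo11. The 10 genes, without Nanos2, ran from 41.6% for Sohlh2 to 265% for Zbtb16. No difference between genes was tested. For genotype at LZ, limma called 0 genes of these marker lists, and an unadjusted p under 0.05 passed 6 of the 9 tested Sertoli cell genes, 3 of 10 PD spermatocyte genes and 1 of 9 spermatid genes, all of them lower in Cnot4-null LZ than in WT LZ. Of all genes 6.37% passed, 3.63% as lower, and the 1 of 9 spermatid genes lies near that share. The Sertoli cell genes were Clu (-2.99), Rhox8 (-1.94), Amhr2 (-1.93), Cldn11 (-1.92), Aard (-1.77) and Sox9 (-0.73), named after their values were seen. Sox9 passed the filter only through WT LZ replicate 2, at 1.23 FPKM, which favours a lower value in Cnot4-null LZ.

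Likeness of pattern was described by the Pearson r of log2 values over the 8 libraries, which share their groups, so no p is given. Nearest to Kit were Ascl2 (0.998) and Ergic1 (0.998). Nearest to Zbtb16 were Apba3 (0.995) and Stk24 (0.991), and nearest to Sall4 were Mageb4 (0.998) and Cox7b (0.997). Dmrt1 was most like Rad21 (0.999) and Igfbp2 (0.998). Sohlh1 was most like Uchl1 and Wdr1 (both 0.998), Uchl1 like Sohlh1 and Rbm3 (both 0.998), and Sohlh2 like Ube2v2 (0.998) and Xlr (0.997). Nanos3 had the least close neighbours, Klf9 (0.934) and Rhox10 (0.919), and Gfra1 and Nanos2 stayed below 5 FPKM in every group mean and were left out.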

How the data were processed

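RNA was sequenced from 8 libraries of sorted mouse spermatocytes, 2 for each of WT LZ, Cnot4-null LZ, WT PD and Cnot4-null PD. The authors deposited FPKM per gene symbol, made with TopHat2 2.1.1 and Cufflinks 2.2.1 on mm9 according to the submitters' processing notes. The files used hold no counts. Fragment numbers were estimated from the spacing of low FPKM values in 2924 single-transcript genes of at least 2000 nt with GENCODE vM1 lengths, where 87.7% to 91.0% of low values lay within 0.15 of a whole number of fragments. The authors' gene models may have other lengths.

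Values were taken as log2(FPKM + 1). Genes above 1 FPKM in at least 1 library (15899 of 23235 symbols) were fitted with limma 3.58.1 in R 4.3.3, with 4 group means and 4 residual degrees of freedom, eBayes with a trend, 5 contrasts and two-sided tests. The p-values were adjusted by Benjamini-Hochberg over all genes tested within a contrast, and a gene was called at an adjusted p under 0.05. The procedure was tested on simulated data. A fold on the scale of FPKM + 1 is 2 to the power of the log2 change.

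The 10 genes and the lists were chosen with earlier results of these data known. The lists cover other genes of undifferentiated and differentiating spermatogonia, ligands and partners, and markers of germ cells, LZ and PD spermatocytes, spermatids, Sertoli, Leydig, macrophage, peritubular and endothelial, and blood and mast cells. From each list up to 3 called genes with the largest absolute effect at PD were named, with the most abundant gene of marker lists. For likeness, the 2 genes with the highest r were named among genes with a mean of at least 5 FPKM, for members with a group mean of at least 5 FPKM.

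Alternatives were no filter, a mean of at least 5 FPKM, a pseudocount of 0.1, quantile normalization, rescaling to 1 median, eBayes without a trend, the compared libraries alone, replicate number as a block, an adjusted p under 0.01, and leaving out each library. A group left with 1 library was assumed to vary like the others. Sequences were read from RefSeq tables.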

Additional observations from a re-analysis of the deposited data

Results flagged for a closer look

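For 8 of the 10 genes the genotype effect at PD differed from that at LZ by limma's test of the difference itself, which brought them here. In log2 units, the difference was 4.02 for Kit (adjusted p 0.00522), 2.41 for Zbtb16 (adjusted p 0.0218), 1.84 for Gfra1 (adjusted p 0.0304) and 4.86 for Sohlh1 (adjusted p 0.00103). It was 2.81 for Sohlh2 (adjusted p 0.00718), 5.03 for Dmrt1 (adjusted p 0.0016), 3.52 for Sall4 (adjusted p 0.00206) and 5.04 for Uchl1 (adjusted p 0.000993). In each case both Cnot4-null PD libraries lay above both WT PD libraries. The median of all genes was 0.64 on this scale, and the shares of all genes called were 26.0% positive and 3.97% negative. The call of Gfra1 was lost without any single WT or Cnot4-null LZ library, and that of Zbtb16 without any single WT library or Cnot4-null LZ replicate 1. In fits without 1 library, the group left with a single library adds nothing to the estimated spread. After quantile normalization the calls of Zbtb16, Gfra1 and Sohlh2 were lost, and with no filter those of Zbtb16 and Gfra1.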

How the results depend on the processing

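With 2 libraries a group, low WT PD values rest on few fragments. The labels do not say whether libraries of the same replicate number share a mouse or a sort. The r of their deviations from the group means ran from -0.0651 to 0.194, highest between Cnot4-null LZ and Cnot4-null PD. With 2 libraries a group, these r do not settle whether samples are paired, and no pairing was assumed. Of the values recomputed under alternatives, 140 kept direction and side of the threshold and 11 lost a call for genotype at PD, 139 and 11 for PD versus LZ in WT, 132 and 18 for the difference between stages, and 144 were kept at LZ, with 7 reversed. For PD versus LZ in Cnot4-null 139 were kept, 20 lost a call, 3 gained one and 5 reversed. Where values changed, the cause was not tested.

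Quantile normalization reversed Nanos3, to 0.10 for PD versus LZ in WT, -0.12 in Cnot4-null and -0.22 for the difference between stages, and left 5 of the 10 genes called for that difference. For PD versus LZ in Cnot4-null, the genes called lower of the 10 were 0 without a filter, 1 with a pseudocount of 0.1, 1 after rescaling, 1 without a trend, 0 with the compared libraries alone, 1 with the replicate block and 0 at an adjusted p under 0.01. Genes called in all then numbered 3955 with the compared libraries alone and 4286 at 0.01. At LZ they were 31 without a filter, 4 with the compared libraries alone and 8 at 0.01. For genotype at PD they were 5219 with a mean of at least 5 FPKM and 4811 at 0.01, and for the difference between stages 1709 at 0.01. With the replicate block, 8298 genes in all and 9 of the 10 were called for genotype at PD.

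Leaving out 1 library at a time, all genes called ranged from 4644 to 8333 for PD versus LZ in Cnot4-null, 9 to 25 for genotype at LZ, 4057 to 9956 at PD and 1656 to 7929 for the difference between stages. Of the 10 genes, 0 to 1 were called higher and 0 to 2 lower for PD versus LZ in Cnot4-null, where Kit ran from -1.36 to 0.10, Zbtb16 from -0.04 to 1.01, Nanos3 from -0.18 to 0.81 and Sall4 from -0.29 to 0.04. At LZ the genotype effect ran from -0.31 to 0.05 for Kit, -0.48 to 0.00 for Gfra1, -0.29 to 0.44 for Sohlh2, -0.43 to 0.05 for Dmrt1 and -0.18 to 0.81 for Nanos3. Other values moved without a change of direction. For PD versus LZ in Cnot4-null these were Nanos2 (-1.15 to -0.12), Sohlh1 (-0.55 to -0.08) and Uchl1 (-0.71 to -0.21), among others. For genotype at LZ they were Zbtb16 (0.29 to 0.97), Sall4 (0.04 to 0.31), Sohlh1 (-0.49 to -0.02) and Uchl1 (-0.73 to -0.23).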

Other observations

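In Cnot4-null PD, 14 of the 22 other genes of undifferentiated spermatogonia were higher in replicate 2 than in replicate 1 and 7 were lower, with 1 at 0 in both. Of the 9 other genes of differentiating spermatogonia, 5 were higher in replicate 2 and 4 lower. The differences between the libraries were not tested.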
